A study of Mus musculus with 24 samples.

Results

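The 3 peroxisome proliferator-activated receptor genes Ppara, Ppard and Pparg and 4 genes that these receptors control in fasting, Angptl4, Pdk4, Ucp2 and Ucp3, were followed through lactation in mouse mammary gland. They were taken by symbol from a table of 32544 genes, with earlier results of these data known. All 7 passed the filter that left 16908 genes for testing. The table holds polyA RNA of flash-frozen inguinal mammary glands from mice of the genotypes labelled BL/6 C57 and BL/6 NZB, called C57 and NZB here. The 8 groups of 3 mice are non-lactating glands and glands of lactation days 8, 14 and 21 of either genotype. The table's name places the samples in a first pregnancy, and the labels give no age, treatment, transgene or deleted gene. Strain names of this form usually give the nuclear background and then the source of the mitochondrial DNA, but the labels give only the names. Each library is a piece of whole gland, so a fall in the number of cells of a type and a fall in RNA per cell cannot be told apart.

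PPARs are nuclear receptors that bind fatty acids and their derivatives, pair with a retinoid X receptor and act at repeats of the letters AGGTCA. PPAR gamma (Pparg) drives fat cell differentiation and fat storage, PPAR alpha (Ppara) drives fatty acid oxidation and ketone body synthesis in the fasted liver, and PPAR delta (Ppard) drives fatty acid oxidation in muscle and many other tissues. Among their targets, Angptl4 encodes a secreted inhibitor of lipoprotein lipase, Pdk4 a kinase that shuts pyruvate out of the citric acid cycle, and Ucp2 and Ucp3 carriers of the mitochondrial inner membrane. During lactation the gland takes up fatty acids through lipoprotein lipase and makes fatty acids from glucose, while its fat cells shrink.

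All levels below are CPM, the reads of a gene per 1000000 reads of its library, after 16 milk protein genes were taken out and the remaining genes rescaled to the same total. Milk protein genes held 0.472% of the reads of the C57 glands without lactation on average, 73.9% on day 8, 70.4% on day 14 and 70.3% on day 21. In NZB glands the means were 1.47%, 73.7% and 71.6%, and then 24.5% on day 21. Against the glands without lactation, the median of all genes lay at a log2 fold of -0.31 in C57 on day 8 on the scale used here, at -0.04 under median-of-ratios scaling and at -1.81 on the deposited scale with the milk protein genes kept. Between NZB days 14 and 21 these medians were 0.28, 0.05 and 1.36.

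Recovered read totals ran from 7031812 to 24253128 reads per library. The C57 mouse 3 without lactation carries the genotype tag of the other strain, and its title says C57. Gm29216 was at 0 CPM in every NZB library and at 922 to 3609 CPM in the C57 libraries, highest in that mouse. C57 day 14 mice 1 and 2 were each closest, over 8902 genes, to the C57 day 21 mouse with the same number. Their log2 differences had SDs of 0.313 and 0.271, and results with the C57 day 21 group are also given without its mice 1 and 2 where that ends a call. The summed CPM of 14 skeletal muscle markers was 4.96 to 24.3 in C57 libraries, against 956 in NZB mouse 3 without lactation and 449 and 1498 in NZB day 21 mice 1 and 2. These 3 are the muscle libraries left out below. Libraries that stay in those fits were not free of muscle RNA, with 115 in NZB mouse 1 without lactation and 82.9 in NZB day 8 mouse 2. B and T lymphocyte markers summed to 860 and 3209 in NZB mice 2 and 3 without lactation and to 75.4 in mouse 1. Summed markers of the secretory epithelium were 559.5 to 1226 in C57 glands without lactation and 83.6 to 337 in the NZB ones, where Krt8, a keratin of luminal cells, went down to 2.20 CPM in mouse 3.

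The upstream sequences of Ucp3, Ucp2 and Pdk4 are shown because the first pair lie next to each other on chromosome 7, 6904 bases apart on the same strand, and rose by very different amounts, while Pdk4 moved at another stage. Each run covers the bases from 250 to 32 before the RefSeq start (GRCm38.p6), 5′ to 3′ on the gene's strand, at chr7:100472741-100472959 (plus strand) for Ucp3, chr7:100493108-100493326 (plus strand) for Ucp2 and chr6:5496310-5496528 (minus strand) for Pdk4. Capitals mark AGGTCA and the STAT letters TTCNNNGAA.

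Ucp3: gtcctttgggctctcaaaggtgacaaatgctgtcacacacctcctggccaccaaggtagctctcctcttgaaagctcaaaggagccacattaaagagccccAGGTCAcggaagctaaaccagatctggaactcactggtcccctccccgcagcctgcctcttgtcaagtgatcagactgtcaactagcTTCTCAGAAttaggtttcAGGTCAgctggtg
Ucp2: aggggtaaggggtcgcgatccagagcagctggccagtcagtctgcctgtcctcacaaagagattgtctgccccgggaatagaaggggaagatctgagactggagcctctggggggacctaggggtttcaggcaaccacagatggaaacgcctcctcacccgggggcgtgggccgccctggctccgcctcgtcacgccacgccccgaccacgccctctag
Pdk4: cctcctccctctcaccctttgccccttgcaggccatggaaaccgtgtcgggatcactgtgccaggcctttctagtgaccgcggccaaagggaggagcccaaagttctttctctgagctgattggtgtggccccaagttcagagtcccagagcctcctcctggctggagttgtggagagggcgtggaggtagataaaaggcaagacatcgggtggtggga

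The Ucp3 window holds AGGTCA at 149 and 44 bases before the start and TTCNNNGAA, which reads the same on both strands, at 62. Of 32851 windows of 219 bases, 12.5% hold AGGTCA on either strand and 6.24% hold TTCNNNGAA. No window of a member holds a direct repeat of AGGTCA spaced by 1 base (0.0304% of all windows, each also counted under AGGTCA) or the FOXO letters GTAAACA (2.8%). The hypoxia letters ACGTG (14.4%) stand in the Ppard window alone, at 213 bases before its start. Entries were found for 6 of the 7 genes, with 3 starts for Pparg and none for Angptl4.

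In the annotation of GRCm38, Ppara lies on the plus strand of chromosome 15 (85734983 to 85802819) and Ppard on the plus strand of chromosome 17 (28232700 to 28301474). Pparg is on the plus strand of chromosome 6 (115360951 to 115490399), and Pdk4 on its minus strand (5483351 to 5496309). Angptl4 lies on the minus strand of chromosome 17 (33773750 to 33781830). Ucp3 (100472990 to 100486432) and Ucp2 (100493337 to 100502020) are on the plus strand of chromosome 7. Ucp2 shares 305 bases with Dnajb13 on the opposite strand, which reached 123 CPM at most, and how the authors' counting treated strand is not given in the sources used here.

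**Figure D1:**
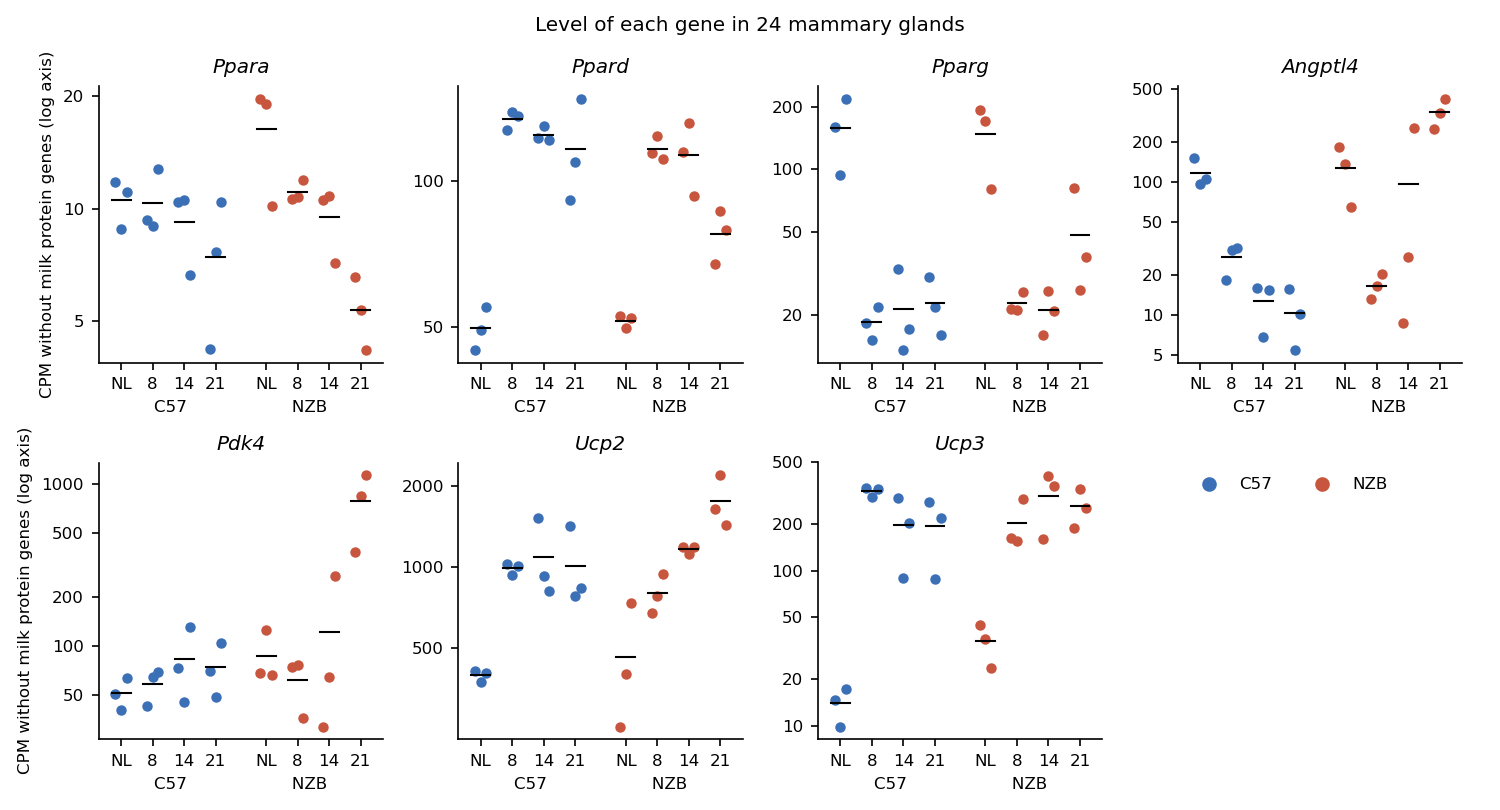
CPM without milk protein genes (log axis) of each gene in the 24 glands by genotype and stage, with 1 point per mouse and a line at the mean of 3. Pparg was at 80.8 CPM or more in every gland without lactation, and Angptl4 and Pdk4 had their highest group means in NZB glands on day 21.

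By group means per kilobase, Pparg was the most abundant receptor transcript without lactation and Ppard on days 8 and 14 of either genotype. On day 8 in C57, Pparg fell 7.78-fold and Ppard rose 2.68-fold against glands without lactation, while Ppara showed a log2 fold of -0.03. On the deposited scale Ppard turned to a log2 fold of -0.49. In NZB glands Pparg and Ppard gave folds of the same order, and Ppara a log2 fold of -0.47 that did not pass the threshold. On day 14 no receptor gene passed the test against day 8 in either genotype, and in NZB on day 21 Ppard and Ppara were lower and Pparg higher than on day 14, the first 2 in the reverse order on the deposited scale.

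Pparg, the fat cell receptor, stood in C57 glands at 160.4, 94.4 and 218 CPM without lactation, 18.4, 15.2 and 21.9 on day 8, 33.2, 13.6 and 17.2 on day 14 and 30.5, 21.9 and 16.1 on day 21. Every C57 gland in lactation was below every C57 gland without it. The log2 fold was -2.96 (SE 0.33, adjusted p 1e-07) on day 8, -2.84 (SE 0.37) on day 14 and -2.70 (SE 0.39) on day 21. NZB glands held 193, 169.9 and 80.8 CPM without lactation, 21.4, 21.2 and 25.9 on day 8, 16.1, 26.3 and 20.9 on day 14 and 81.03, 26.5 and 38.2 on day 21. Here the falls were -2.56 (SE 0.45), -2.69 (SE 0.46) and -1.65 (SE 0.46, adjusted p 0.012), and NZB day 21 mouse 1 overlapped the glands without lactation. The day 21 call was lost without NZB mouse 1 or mouse 2 of the non-lactating group (adjusted p 0.06 and 0.24) or day 21 mouse 2 (0.07). NZB day 21 mouse 1 also had the highest summed level of 12 white adipocyte markers on its day, 7252 CPM against 2474 and 2577 in mice 2 and 3. Across the groups those markers summed to 8160 to 22860 CPM without lactation and to 928 to 1999 on the other lactation days of either genotype, with none of the 12 at 0. The part of fat cell number in the Pparg values was not tested.

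Ppard, the most widely expressed of the receptors, was at 44.8, 49.2 and 54.97 CPM in C57 glands without lactation, 128, 139 and 136 on day 8, 123, 129.9 and 121 on day 14 and 91.4, 109.7 and 148 on day 21. Its log2 folds of 1.42 (SE 0.14, adjusted p 1.8e-08), 1.31 (SE 0.16) and 1.19 (SE 0.17) turned to -0.49, -0.42 and -0.55 on the deposited scale, where the gene still lay 1.32, 1.16 and 1.04 above the median of all genes. In NZB glands the levels were 52.7, 49.8 and 52.05 CPM without lactation, 114, 124 and 111 on day 8, 115, 132 and 93.4 on day 14 and 67.4, 86.8 and 79.1 on day 21. No NZB gland in lactation overlapped those without it. The log2 folds were 1.16 (SE 0.19) and 1.11 (SE 0.20) on days 8 and 14, again turned (-0.71 and -0.66) on the deposited scale, and 0.58 (SE 0.20, adjusted p 0.037) on day 21. That last call was lost under 12 of 21 alternative settings, among them leaving out NZB mouse 1 or 2 without lactation or NZB day 21 mouse 2 or 3 (adjusted p 0.068 to 0.36). Between the genotypes on day 21 Ppard was lower in NZB (log2 -0.55, SE 0.16, adjusted p 0.017), with the order turned to 0.79 on the deposited scale. Without the 3 NZB libraries with the most muscle RNA, which leaves 1 NZB day 21 gland, the value was -0.52 and no longer past the threshold. Without C57 day 21 mouse 2 or 3 the adjusted p was 0.072 and 0.16.

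Ppara, the receptor of the fasted liver, was the lowest receptor transcript per kilobase in every group. C57 glands held 11.8, 8.80 and 11.1 CPM without lactation, 9.33, 8.998 and 12.8 on day 8, 10.4, 10.5 and 6.63 on day 14 and 4.21, 7.66 and 10.4 on day 21, all overlapping. On the deposited scale Ppara fell without overlap on all of these days, with log2 folds of -1.64, -1.65 and -1.91 (adjusted p 4.8e-08, 1.7e-06 and 1.2e-06), where the median of all genes on C57 day 8 was -1.81. NZB glands held 19.7, 19.04 and 10.2 CPM without lactation, 10.6, 10.7 and 11.9 on day 8, 10.5, 10.8 and 7.14 on day 14 and 6.56, 5.34 and 4.17 on day 21. The NZB log2 folds were -0.47 (SE 0.34, adjusted p 0.29) on day 8 and -0.69 (SE 0.34, adjusted p 0.12) on day 14. They were -0.76 and -0.98 without the muscle libraries, NZB mouse 3 without lactation among them. On NZB day 21 every value was below every NZB value without lactation (log2 -1.41, SE 0.34, adjusted p 0.0046, or 0.18 without mouse 2 of the latter) and below every NZB value of day 14. The step from day 14 (log2 -0.72, SE 0.26, adjusted p 0.043) turned to 0.45 on the deposited scale and lost its call under 13 of 20 alternatives, the adjusted p running from 0.023 to 0.17. It was among other settings lost without NZB day 14 mouse 1 or 2 or NZB day 21 mouse 2 or 3 (adjusted p 0.11 to 0.17).

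Per kilobase of exon, Pparg made up 84.0 ± 5.0% (SD, n = 3) of the summed level of the 3 receptor genes in C57 glands without lactation and 23.3 ± 3.1% on day 8. Ppard went from 11.4 ± 4.1% to 66.7 ± 4.2% and Ppara from 4.64 ± 1.11% to 10.02 ± 1.34%. These shares do not depend on the scaling, since all 3 come from the same library. In NZB glands Pparg made up 80.6 ± 5.6% without lactation, 29.6 ± 3.0% on day 8, 28.9 ± 5.1% on day 14 and 55.2 ± 15.7% on day 21. The NZB day 21 range, 40.9% to 72.0%, was above every NZB gland of days 8 and 14 and below every NZB gland without lactation.

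**Figure D2:**
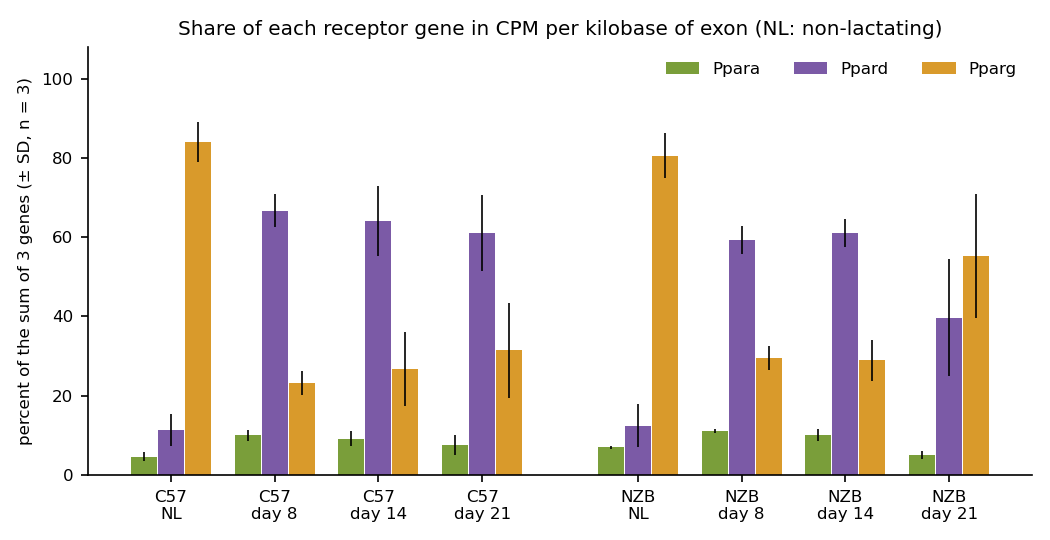
Share of Ppara, Ppard and Pparg in their summed CPM per kilobase of exon, as mean and SD of 3 mice in each group. Pparg took 84.0% in C57 glands without lactation and 23.3% on day 8, and the NZB day 21 glands lay between at 55.2%.

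Ucp3 had the largest fold of the 7 genes at the onset of lactation in C57, and Ucp2 rose beside it to the highest level. On day 8 in C57 the folds were 22.3 for Ucp3 and 2.49 for Ucp2, and in NZB 5.63 and 1.87. Both carriers stayed high to day 21 in both genotypes on the scale used here, while on the deposited scale the Ucp2 folds were below 0 on days 8 and 14 of both genotypes and C57 day 21.

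Ucp3, a carrier best known from skeletal muscle and brown fat, was at 14.6, 9.85 and 17.3 CPM in C57 glands without lactation, 342, 298 and 335 on day 8, 297, 89.2 and 204 on day 14 and 278, 88.2 and 220.0 on day 21. Mouse 2 was the lowest on C57 days 14 and 21, and these libraries are a pair that lay closest to each other. Log2 folds were 4.48 (SE 0.37, adjusted p 1.1e-09), 3.6 (SE 0.41) and 3.6 (SE 0.44). NZB glands had 44.8, 36.4 and 23.7 CPM without lactation, 163, 156 and 291 on day 8, 159.6, 406 and 351 on day 14 and 190.1, 339 and 253 on day 21, again without overlap between lactation and none. Their log2 folds were 2.49 (SE 0.50, adjusted p 0.00042), 3.03 (SE 0.51) and 2.87 (SE 0.51). On the deposited scale the first 2 of these were 0.61 and 1.24, with adjusted p of 0.32 and 0.05, neither past the threshold. The rise to day 8 was 1.99 smaller in NZB on the log2 scale (SE 0.63), which did not pass the threshold (adjusted p 0.17, range over 27 alternatives 0.075 to 0.82). Without lactation every NZB gland was above every C57 gland on the scale used here (log2 1.26, SE 0.52, adjusted p 0.26). Under median-of-ratios scaling these groups overlapped.

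Ucp3 was high in glands with low and with high skeletal muscle markers. The C57 day 8 glands, at 298 to 342 CPM of Ucp3, had a muscle marker sum of 4.96 to 10.5 CPM, and NZB mouse 3 without lactation had a sum of 956 with 23.7 CPM of Ucp3. NZB day 21 mouse 2 had the highest sum of all 24 glands (1498) with 339 CPM of Ucp3, and NZB day 21 mouse 1 a sum of 449 with 190.1. The part of muscle RNA in the Ucp3 values was not tested. Ucp1, the defining carrier of brown fat, was at 9.29 CPM at most and at 0 in all 6 glands of day 8. Cidea, a lipid droplet protein that brown fat also makes, was at 651 to 872 CPM on C57 day 8 and at 0.549 to 7.37 CPM without lactation.

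Ucp2, the widely expressed carrier, was at 411, 372 and 404 CPM in C57 glands without lactation, 1019.8, 930.0 and 1009.7 on day 8, 1513, 923 and 809 on day 14 and 1416, 777 and 831 on day 21. Every C57 gland in lactation was above the 3 without it, with log2 folds of 1.32 (SE 0.23, adjusted p 4.7e-05), 1.40 (SE 0.25) and 1.29 (SE 0.27) that turned to -0.62, -0.37 and -0.48 on the deposited scale. NZB glands held 255, 401 and 731 CPM without lactation, 671, 779.8 and 941 on day 8, 1183, 1112 and 1186 on day 14 and 1631, 2187 and 1423 on day 21. Day 8 overlapped NZB mouse 3 without lactation, the gland with the most lymphocyte RNA. The part of its cell makeup in its Ucp2 level was not tested. It also had the highest muscle marker sum (956 CPM) and the lowest white adipocyte (8160) and secretory epithelium (83.6) sums of the NZB non-lactating group. The day 8 log2 fold of 0.90 (SE 0.31, adjusted p 0.025) was 1.62 (adjusted p 0.00027) without NZB mice 2 and 3 of that group, which leaves 1 gland assumed to vary like the other groups, and -1.0 on the deposited scale. It was lost without NZB mouse 1 (0.54, adjusted p 0.21) or mouse 2 (0.87, adjusted p 0.22) of the non-lactating group or NZB day 8 mouse 3 (0.78, adjusted p 0.077). Folds of 1.46 (SE 0.32) on day 14, turned to -0.34 on the deposited scale, and 2.03 (SE 0.32, adjusted p 7e-05) on day 21 followed. On day 21 every NZB gland was above every C57 gland on the scale used here (log2 0.82, SE 0.27, adjusted p 0.027), the closest at 1423 and 1416 CPM. Under median-of-ratios scaling these groups overlapped. Without the 3 libraries with the most muscle RNA, which leaves 1 NZB day 21 gland, the difference was 0.55 and no longer past the threshold. It was 0.66, 0.71 and 0.65 without C57 day 21 mouse 2, C57 day 21 mouse 3 or NZB day 21 mouse 2, with adjusted p of 0.21, 0.13 and 0.17, and 0.53 (adjusted p 0.14) under median-of-ratios scaling.

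Counted over the 7 genes, 3 rose and 2 fell on C57 day 8, where 14.3% of all tested genes rose and 35.6% fell. The counts were the same on C57 day 14 (14% and 25.7% of all genes) and C57 day 21 (12.9% and 24.6%). In NZB 3 rose and 2 fell on day 8 (12% and 26.4%), 3 rose and 1 fell on day 14 (12.1% and 23.3%), and 4 rose and 2 fell on day 21 (12.5% and 10.4%). No member passed in C57 between days 8 and 14 (4.9% of all genes did, either direction) or in NZB over the same step (1.54%). Between C57 days 14 and 21 no gene of the 16908 (0%) passed limma's test or limma's voom test on recovered reads. Of all genes 156 (0.923%) had an unadjusted p under 0.05 by limma's test, none of them a member. C57 day 14 mice 1 and 2 were each closest to the same-numbered day 21 mouse, and the test takes all glands as unrelated. The absence of calls therefore does not show that the 2 days were alike.

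The balance of rises and falls over all genes moved with the scaling. On the deposited scale 16162 genes were tested. On C57 day 8, 2419 genes rose and 6024 fell, against 3913 and 4494 under median-of-ratios scaling and 384 and 14632 on the deposited scale. In the same order the counts were 2373 and 4352, 3288 and 3737, and 409 and 13999 on C57 day 14, and 2176 and 4163, 3032 and 3495, and 360 and 13813 on C57 day 21. NZB gave 2032 and 4471, 2998 and 3315, and 437 and 14138 on day 8, 2050 and 3946, 2966 and 2804, and 510 and 13933 on day 14, and 2109 and 1759, 2369 and 1865, and 1144 and 3433 on day 21.

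**Figure D3:**
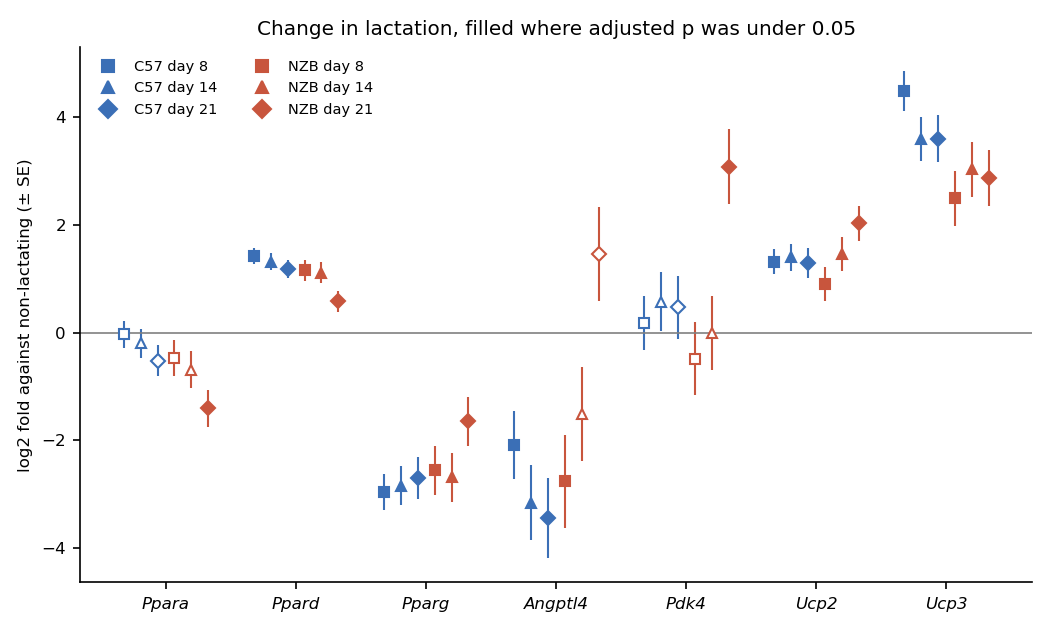
Log2 fold (± SE) of each gene on lactation days 8, 14 and 21 against glands without lactation of the same genotype, filled where limma's adjusted p was under 0.05. Ucp3 lay highest at 4.48 on C57 day 8 and Pparg lowest on that day at -2.96, and the rises of Ppard and Ucp2 on days 8 and 14 and C57 day 21 turn to falls on the deposited scale.

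Angptl4 and Pdk4 had the largest folds of the 7 genes on NZB day 21 against C57. Angptl4 was 30.7-fold and Pdk4 9.90-fold higher in NZB than in C57 glands of that day, and against NZB day 14 the folds were 7.88 and 8.48. On days 8 and 14 neither passed the test between genotypes.

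Angptl4, the lipase inhibitor that fat and liver release in fasting, was at 149.5, 96.6 and 104 CPM in C57 glands without lactation, 18.3, 30.9 and 31.98 on day 8, 15.97, 6.82 and 15.4 on day 14 and 15.6, 5.47 and 10.1 on day 21. It fell by 2.08 on the log2 scale on day 8 (SE 0.63, adjusted p 0.0085), and its log2 folds were -3.16 (SE 0.70) on day 14 and -3.44 (SE 0.74) on day 21. Without C57 mouse 1 of the non-lactating group the day 8 value was -1.89 with an adjusted p of 0.082. NZB glands held 182, 135 and 65.1 CPM without lactation, 13.2, 16.5 and 20.2 on day 8, 8.72, 27.5 and 253 on day 14 and 247, 328 and 421 on day 21. NZB day 14 mouse 3 stood far above the other two of its group and inside the range of day 21. The day 8 fall in NZB was -2.76 (SE 0.86, adjusted p 0.013), with an adjusted p of 0.053 without mouse 1 and 0.19 without mouse 2 of the non-lactating group. On NZB day 21 all 3 values were above all 3 without lactation, and that difference of 1.46 (SE 0.88) missed the threshold at an adjusted p of 0.26. That SE also takes in the spread of the other groups, NZB day 14 among them. In limma's fit on the compared groups alone the SE was 0.37 and the adjusted p 0.036.

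Pdk4, the kinase that spares glucose in fasting, was at 51.1, 40.7 and 63.4 CPM in C57 glands without lactation, 43.03, 64.9 and 69.2 on day 8, 73.9, 45.2 and 132 on day 14 and 70.1, 48.5 and 104 on day 21. The 4 C57 groups overlapped, and no lactation day passed the test on the scale used here. On the deposited scale its log2 fold on day 8 was -1.69 in C57 (adjusted p 0.0058) and -2.32 in NZB (adjusted p 0.0061), both without overlap. The medians of all genes there were -1.81 and -1.80, and Pdk4 less the median was 0.12 and -0.52. Its NZB levels were 68.3, 126 and 66.4 CPM without lactation, 74.3, 76.3 and 36.4 on day 8, 32.1, 64.9 and 269 on day 14 and 377, 842 and 1128 on day 21. All 3 NZB glands of day 21 were above each of the other 21 glands, and the next was NZB day 14 mouse 3. Against NZB glands without lactation the log2 fold on day 21 was 3.08 (SE 0.69, adjusted p 0.0024), and it was 3.38 with an adjusted p of 0.065 without mouse 2 of the non-lactating group.

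From NZB day 14 to day 21 Pdk4 rose by 3.08 (log2, SE 0.53, adjusted p 0.0002) and Angptl4 by 2.98 (SE 0.67, adjusted p 0.0022). Without NZB day 14 mouse 1 the Angptl4 rise was 1.94. Its call was lost in the fit on the compared groups alone (SE 0.95, adjusted p 0.053). These rises are from log2 values, and the group means of Angptl4 were 96.4 CPM on NZB day 14 and 332 on day 21. Over this step 3 of the 7 genes rose and 2 fell, against 21% and 6.78% of all genes (3555 and 1147, or 1600 and 1871 under median-of-ratios scaling and 14286 and 159 on the deposited scale). The third riser was Pparg (log2 1.04, SE 0.35, adjusted p 0.03), whose call was lost under 8 of 20 alternatives, and the falls were those of Ppara and Ppard (log2 -0.53, SE 0.15, adjusted p 0.011, turned to 0.86 on the deposited scale). Pparg lost its call without NZB day 14 mouse 1 or 3 (adjusted p 0.1 and 0.053) or NZB day 21 mouse 1 (log2 0.60, adjusted p 0.17), and Ppard without NZB day 14 mouse 2 (adjusted p 0.094). Ucp2 had a log2 fold of 0.57 (adjusted p 0.084) and Ucp3 one of -0.16.

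Between the genotypes on day 21, Angptl4 was higher in NZB by 4.94 (log2, SE 0.73, adjusted p 4.6e-05) and Pdk4 by 3.31 (SE 0.58, adjusted p 0.00029). The count was 3 genes higher and 1 lower, against 18.6% and 5.42% of all genes (3152 and 917, or 1465 and 1524 under median-of-ratios scaling and 13400 and 138 on the deposited scale). No member passed between the genotypes without lactation (2.4% of all genes did), on day 8 (0.124%) or on day 14 (0.0473%). The change from day 14 to day 21 differed between genotypes for 2 members, Angptl4 and Pdk4, and for 7.59% of all genes (854 higher in NZB and 429 lower, 246 and 567 under median-of-ratios scaling, 11991 and 74 on the deposited scale). For Pdk4 the difference of changes was 3.19 (SE 0.79, adjusted p 0.016) and for Angptl4 3.27 (SE 1.0, adjusted p 0.047). Without C57 day 21 mice 1 and 2 they were 2.63 (adjusted p 0.085) and 3.20 (adjusted p 0.096), with the 1 gland left assumed to vary like the other groups. The Pdk4 call was lost under 5 of 27 alternatives, among them without C57 day 14 mouse 3, C57 day 21 mouse 2 or NZB day 21 mouse 2 (adjusted p 0.053, 0.094 and 0.052). The Angptl4 call was lost under 15 of 27, among them without C57 day 14 mouse 1 or 3, C57 day 21 mouse 2 or 3, NZB day 14 mouse 1 (2.22) or 2, or NZB day 21 mouse 2 or 3 (adjusted p 0.08 to 0.19). The difference of changes to day 8 passed for no member and for 0.722% of all genes.

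**Figure D4:**
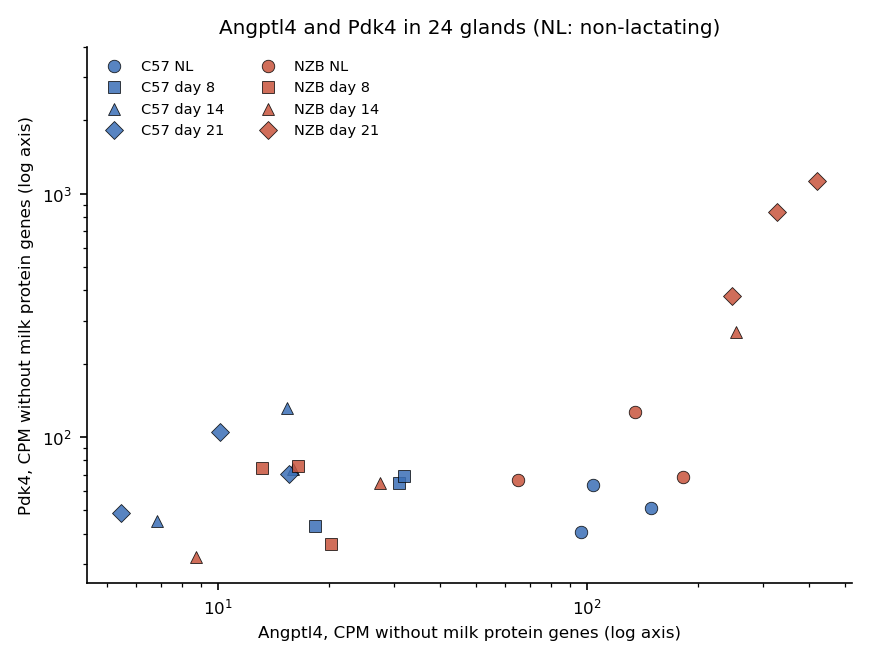
CPM of Angptl4 and Pdk4 (both log axes, without milk protein genes) in each of 24 glands, coloured by genotype and shaped by stage. The NZB day 21 glands lie at the upper right, at 247 to 421 CPM of Angptl4 and 377 to 1128 CPM of Pdk4, with NZB day 14 mouse 3 beside them.

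Muscle RNA was unequal in these glands, and Pdk4 is also a skeletal muscle gene. NZB day 21 mouse 3 had a muscle marker sum of 17.4 CPM, within the range of the C57 libraries, and the highest Angptl4 (421 CPM) and Pdk4 (1128 CPM) of all 24. With NZB day 21 mice 1 and 2 and NZB mouse 3 without lactation left out, the difference from C57 on day 21 was 5.31 for Angptl4 and 3.97 for Pdk4. From day 14 to day 21 the values were then 3.35 and 3.75, and both rest on a lone NZB day 21 gland. The part of muscle RNA in the Angptl4 and Pdk4 values was not tested. Macrophage markers summed to 1122 to 1769 CPM on NZB day 21 and to 874 in NZB day 14 mouse 3, against 158 to 375 in the other glands in lactation. In NZB day 14 mouse 3 Cd14, a receptor for bacterial lipopolysaccharide, made 658 CPM of that sum, and in NZB day 21 mice 1, 2 and 3 it made 556, 733 and 1299.5 CPM of 1301, 1122 and 1769. Adgre1, the defining macrophage marker, was at 12.6 CPM in NZB day 14 mouse 3 and at 24.6 to 39.6 CPM on NZB day 21. The other glands in lactation had 7.22 to 13.8 CPM of Adgre1, and those without lactation 10.2 to 50.5. Macrophage marker sums without lactation were 272 to 837 CPM in C57 and 388 to 436 in NZB. The part of macrophages in the Angptl4 and Pdk4 values was not tested.

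**Figure D5:**
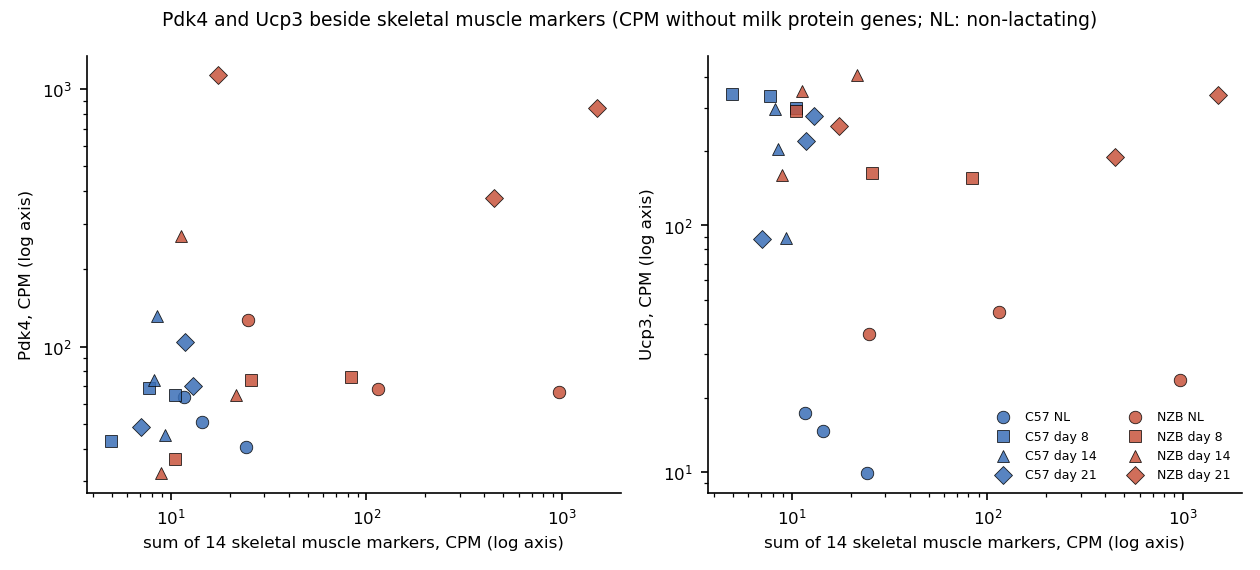
CPM of Pdk4 (left) and Ucp3 (right) against the summed CPM of 14 skeletal muscle markers (log axes, 24 glands). NZB day 21 mouse 3 has 1128 CPM of Pdk4 at a marker sum of 17.4 CPM, and the C57 day 8 glands have 298 to 342 CPM of Ucp3 at sums of 4.96 to 10.5 CPM.

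Pdk4 is 1 of 4 kinases of the pyruvate step. Per kilobase of exon Pdk4 made up 23.2 ± 0.8% of the 4 Pdk genes in C57 glands without lactation, 25.1 ± 3.9% on day 8, and 82.4 ± 9.6% in NZB glands on day 21, with 30.5 ± 21.5% on NZB day 14. Pdk1, the isoform that hypoxia induces, rose by 1.27 (log2, adjusted p 2.6e-08) on C57 day 8, turned to -0.64 on the deposited scale, and had a log2 fold of -1.32 (adjusted p 4.4e-07) from NZB day 14 to day 21, turned to 0.08 on the deposited scale. Of 13 tested paralogs of the targets (Ucp1 and Angptl6 were too low), 1 rose and 6 fell on C57 day 8 with a median of -0.63. The median was -0.31 for all genes, of which 14.3% rose and 35.6% fell. All 13 of 13 fell on the deposited scale, where 14632 of 16162 genes fell. Between NZB days 14 and 21, 5 rose and 2 fell (median 0.81, all genes 0.28), against 21% and 6.78% of all genes. The deposited scale gave 10 and 0, against 14286 and 159 of 16162 genes. Angptl2 rose by 1.49 (adjusted p 0.0043) and Pdk3 by 1.24 (adjusted p 0.0066) over this step on the scale used here. Fewer of the 13 passed without the muscle libraries, which leaves 1 NZB day 21 gland.

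Genes of the lipoprotein lipase axis that Angptl4 acts on were read beside it. On C57 day 8, 4 of 9 fell and none rose, close to the 35.6% of all genes that fell. All 8 that could be tested on the deposited scale fell there, where 14632 of 16162 genes fell. Lpl, the lipase itself, had a log2 fold of -0.66 (adjusted p 0.06). Gpihbp1, which holds the lipase on capillaries, had a log2 fold of -0.80 (adjusted p 0.02) and Angptl8, a lipase regulator of the same family as Angptl4, one of -1.97. Over the step from day 14 to day 21 in NZB, 3 rose and 2 fell, against 21% and 6.78% of all genes. The deposited scale gave 6 and 0, against 14286 and 159 of 16162 genes. Fewer rises passed without the muscle libraries, which leaves 1 NZB day 21 gland. The falls were Lpl (log2 -0.92, adjusted p 0.026) and the fatty acid carrier Cd36 (-1.52, adjusted p 0.00086), at 0.49 and -0.11 on the deposited scale, and Lrp1 and Apoc2 were among the rises. Against C57 on day 21 Lpl differed by -1.36 (adjusted p 0.0045) and Cd36 by -1.59 (adjusted p 0.0014), at 0.01 and -0.22 on the deposited scale.

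PPAR alpha and delta targets of fatty acid oxidation were mostly lower on day 8, where 35.6% of all genes fell in C57 and 26.4% in NZB, and 14.3% and 12% rose. Of 25 tested genes (Fgf21 and Cyp4a14 were too low), 3 rose and 18 fell on C57 day 8 with a median log2 fold of -0.95, and 4 rose and 20 fell on NZB day 8 with a median of -1.28, against -0.31 for all genes in both. On NZB day 21 2 rose and 4 fell against glands without lactation, where 12.5% of all genes rose and 10.4% fell. Cpt1a, which lets long-chain fatty acids into mitochondria, had a log2 fold of -2.69 (adjusted p 6.1e-10) on C57 day 8, and Acaa1b, a peroxisomal thiolase, one of -2.79 (adjusted p 1.6e-08). The risers on C57 day 8 were the lipid droplet coat gene Plin2 (2.62), the peroxisomal Ehhadh (1.93) and the thioesterase Acot1 (1.41), of which Acot1 turned to -0.42 on the deposited scale. From NZB day 14 to day 21 13 rose and 1 fell (median 0.62, all genes 0.28), against 21% and 6.78% of all genes. The counts were 5 and 1 under median-of-ratios scaling and 24 and 0 on the deposited scale, where 14286 of 16162 genes rose and 159 fell. Fewer rises passed without the muscle libraries, which leaves 1 NZB day 21 gland. Cpt1a rose by 2.69 (adjusted p 2e-08) and Acadl, a dehydrogenase of mitochondrial beta-oxidation, by 2.04 (adjusted p 0.00058), and Ehhadh was the fall (-1.14, at 0.25 on the deposited scale). Between genotypes on day 21 13 were higher in NZB and 1 was lower (median 0.78, all genes 0.30), against 18.6% and 5.42% of all genes. The counts were 8 and 1 under median-of-ratios scaling and 23 and 0 on the deposited scale, where 13400 of 16162 genes were higher and 138 lower. Without the muscle libraries, which leaves 1 NZB day 21 gland, fewer were higher past the threshold.

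PPAR gamma targets of fat cells were mostly lower on day 8. In C57 2 of 18 rose and 14 fell (median -3.38), and in NZB 2 rose and 14 fell (median -3.41), against medians of -0.31 for all genes. Of all genes 14.3% rose and 35.6% fell in C57, and 12% and 26.4% in NZB. Plin1, the lipid droplet coat of fat cells, had a log2 fold of -5.13 (adjusted p 1.4e-10) in C57, and Fabp4, their fatty acid binding protein, one of -3.57. The risers were Cidea (7.67, adjusted p 6.1e-14), which also enlarges milk fat droplets, and the acyl-CoA synthetase Acsl1 (1.28), which turned to -0.65 on the deposited scale. Over the NZB step from day 14 to day 21 9 rose and 4 fell (median 0.95), against 21% and 6.78% of all genes (median 0.28). The counts were 4 and 4 under median-of-ratios scaling and 14 and 1 on the deposited scale, where 14286 of 16162 genes rose and 159 fell. Fewer rises passed without the muscle libraries, which leaves 1 NZB day 21 gland. That setting also drops NZB day 21 mouse 1, the highest of its day in white adipocyte markers. Plin4 rose by 2.23 and Fabp4 by 1.58, and Cidea (-3.97), Acsl1 (-1.75), Cd36 and Lpl were the falls, with Lpl at 0.49 on the deposited scale.

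Receptor partners and coregulators of transcription were counted next. On C57 day 8 2 of 14 rose and 3 fell (median 0.03, all genes -0.31), against 14.3% and 35.6% of all genes. All 14 fell on the deposited scale, where 14632 of 16162 genes fell. The falls included Rxrg (-2.44), a retinoid X receptor, and the coactivator Ppargc1a (-1.74), and the rises were Pprc1 (1.14) and Ppargc1b (0.64), turned to -0.76 and -1.20 on the deposited scale. Rxra, the most widely expressed partner, had a log2 fold of 0.03 (adjusted p 0.88). Between NZB days 14 and 21, 1 rose and 2 fell (median -0.02, all genes 0.28), against 21% and 6.78% of all genes. The deposited scale gave 12 and 0, against 14286 and 159 of 16162 genes.

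Regulators and targets of fasting outside the PPAR family were counted as well, since glucocorticoids and FOXO factors also act on Pdk4 and Angptl4. On C57 day 8 13 of 20 rose and 1 fell (median 0.80), against 14.3% and 35.6% of all genes (median -0.31) on the scale used here. The deposited scale gave 1 and 12, against 384 and 14632 of 16162 genes. On NZB day 8 7 rose and 1 fell (median 0.73), against 12% and 26.4% of all genes (median -0.31). The deposited scale gave 0 and 12, against 437 and 14138 of 16162 genes. The kinase gene Sgk1 rose by 2.55 and the chaperone gene Fkbp5 by 3.53 on C57 day 8, both glucocorticoid targets, and Sesn1, a FOXO target, was the fall (-1.50). The deposited scale gave 12 rises and 1 fall over the step from day 14 to day 21 in NZB, against 14286 and 159 of 16162 genes. On the scale used here 1 rose and 7 fell over this step (median -0.37, all genes 0.28), against 21% and 6.78% of all genes. Sgk1 (-2.69), Klf15 (-2.09) and the glucocorticoid receptor gene Nr3c1 (-1.24, adjusted p 0.00022, at 0.17 on the deposited scale) were among the falls. The rise was that of Fbxo32 (1.49, adjusted p 0.00025), a ubiquitin ligase gene that FOXO factors switch on in fasted muscle.

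Over the 24 glands, as a description of samples that share stages and libraries, Ppard had a Pearson r of -0.93 with Pparg and 0.81 with Ucp3, Ucp2 had 0.80 with Ucp3, and Angptl4 had 0.67 with Pdk4. Among 15020 other named genes, the closest to Pparg were Zfhx4 (0.987), Art3 (0.984) and Gstz1 (0.984), and to Ppard Mia3 (0.967), Hsd17b7 (0.965) and Akt1 (0.965). Ppara was less closely matched, by Mccc2 (0.867) and Tmem120b (0.852). Angptl4 was nearest to Synpo (0.934), Kalrn (0.931) and Hadha (0.926), and Pdk4 to Cyp2b19 (0.930), Cyp2d10 (0.920) and Sdr16c6 (0.906). For Ucp2 they were Fam73a (0.925), Renbp (0.922) and Cnbd2 (0.909), and for Ucp3 Apobr (0.932), Sectm1a (0.927) and Arhgef37 (0.922).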

How the data were processed

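The authors deposited a table of log10(CPM + 1) values for 32544 gene symbols and 48 columns. Each of the 24 samples has 2 columns, for the first and second read file. The builds GRCm38 and mm10 are named per the submitters' processing notes, with the aligner, counter and annotation not given in the sources used here. The deposited log10 values gave whole reads for 100% of values (tolerance 0.05 reads), 7031812 to 24253128 reads per sample, which limits the precision of low genes. In 23 samples the column totals differed by 0.448% or less, and in C57 mouse 2 without lactation by 81.7% (2174916 and 11888708 reads).

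The CPM of a sample's columns were averaged, then 16 genes of milk proteins were dropped and the others rescaled to the same total. The test took every gene past 1 CPM in 3 or more samples and ran on log2(CPM + 1), a scale that understates changes of low genes, with limma 3.58.1 (limma-trend, R 4.3.3). The model had 8 group means, 16 residual degrees of freedom and array weights by group, and p-values were two-sided and Benjamini-Hochberg adjusted over all genes within each of 16 comparisons (threshold 0.05). The scripts were tested on simulated data. Lengths and loci came from the GRCm38 gene annotation. Tables and plots used Python 3.11.15, numpy 2.4.6, pandas 2.3.3 and matplotlib 3.10.9.

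The genes and lists were chosen with earlier results of these data known. Text named all 7 genes, of each list up to 4 genes past the threshold with the smallest adjusted p and those that went the other way, defining cell markers, and the 3 genes of highest Pearson r per member. Lpl on C57 day 8, Rxra, Cd14 and Gm29216 were named after their values were seen. Some genes that this rule would name are not reported here. Alternatives changed the scale (deposited values, median-of-ratios), the number of milk genes, pseudocount, filter, weights, column, model (limma voom on recovered reads, replicate block, compared groups alone) and left out each mouse in turn. On recovered reads limma voom called 8365 genes on C57 day 8 and 4383 between NZB days 14 and 21. Leaving out the libraries with the most muscle RNA, those with the most lymphocyte RNA or C57 day 21 mice 1 and 2 was chosen after seeing the data.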

Additional observations from a re-analysis of the deposited data

Results flagged for a closer look

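The change from day 14 to day 21 differed between NZB and C57 glands for 2 of the 7 genes by limma's test of the difference itself. For Angptl4 the NZB change exceeded the C57 change by 3.27 on the log2 scale (SE 1.0, adjusted p 0.047), with adjusted p of 3.3e-05 to 0.19 over 27 alternatives. For Pdk4 it exceeded it by 3.19 (SE 0.79, adjusted p 0.016), with 0.00023 to 0.094 over 27 alternatives.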

How the results depend on the processing

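Alternatives were followed for 43 results, the 41 called member values and Ucp3 between genotypes without lactation and in its difference of changes to day 8. Of 891 values of these over the alternatives, 791 kept their direction and side of the threshold, 87 lost the call and 13 turned. Other member values that gained a call are not counted, such as Ppara on C57 day 8 on the deposited scale (limma's adjusted p 4.8e-08). All 13 turned on the deposited scale, where milk protein transcripts are kept. There Ppard was -0.49, -0.42 and -0.55 on C57 days 8, 14 and 21, -0.71 and -0.66 on NZB days 8 and 14, 0.86 from NZB day 14 to 21 and 0.79 between genotypes on day 21. Ucp2 was -0.62, -0.37 and -0.48 on the C57 days and -1.0 and -0.34 on NZB days 8 and 14, and Ppara was 0.45 from NZB day 14 to 21. Counts of members past the threshold moved by more than 1.5 times in 4 comparisons, and by less in 4 others. On NZB day 8 (5) it was 3 with no filter. From NZB day 14 to 21 (5) it was 3 with no filter or no array weights, 1 with the compared groups alone and 2 without the muscle libraries. Between genotypes on day 21 (4) it was 7 on the deposited scale, and 2 with the groups alone or without the muscle libraries. For the difference of changes from day 14 to 21 (2) it was 5 on the deposited scale, 0 with the groups alone and 1 under median-of-ratios scaling, pseudocount 0.1, no filter, voom, without the muscle libraries or without C57 day 21 mice 1 and 2, where the call was Ppard and not Angptl4 or Pdk4. Most genes were called in the last 2 of these comparisons on the deposited scale. Of 16162 genes there, 13400 were higher and 138 lower in NZB on day 21. The difference of changes to day 21 was higher in NZB for 11991 and lower for 74. Apart from fewer samples or genes, the cause of the moved member counts was not tested. Leaving out 1 mouse gave counts of 4 to 5, 5 to 5 and 5 to 6 on C57 days 8, 14 and 21, 3 to 6, 4 to 6 and 2 to 6 on the NZB days, 0 to 1 from NZB day 8 to 14, 3 to 4 from day 14 to 21, 2 to 5 between genotypes on day 21, 0 to 2 for the difference of changes to day 21, and 0 in the other 6 comparisons. With the replicate block 42 of 43 values kept their call, and Ppara from NZB day 14 to 21 was -0.72 with an adjusted p of 0.055. In none of 28 group pairs did all 3 same-numbered mice deviate together (r over 0.1), so numbers were not taken to pair them. Mice 1 and 2 of C57 days 14 and 21 had r of 0.57 each, and mouse 3 had -0.01.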
